A study of Mus musculus with 63 samples.

Results

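A set of 10 genes of MHC class II presentation was followed through every library of a study of mouse macrophages that carry the R1441C change in Lrrk2. The members are Ciita, H2-Aa, H2-Ab1, H2-Eb1, H2-Eb2, Cd74, H2-DMa, H2-DMb1, H2-Oa and H2-Ob, and their symbols were matched to the Ensembl identifiers of the count table. All 10 were found, and all 10 were among the 22147 genes that passed the filter on low counts, of 56748 genes listed. Ciita lies on chromosome 16, Cd74 on chromosome 18 and the other members on chromosome 17.

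MHC class II molecules show peptides from the endosomes to CD4+ T cells. In mice of the B6 background the surface molecule is I-A, an H2-Aa alpha chain paired with an H2-Ab1 beta chain, because the alpha chain gene H2-Ea is not functional there. The invariant chain Cd74 fills the groove until it is degraded in the endosome, H2-DM (H2-DMa with H2-DMb1 or H2-DMb2) exchanges its remnant for a peptide, and H2-DO (H2-Oa with H2-Ob) restrains H2-DM. The transactivator Ciita switches the family on. It is always active in B cells and dendritic cells, and in macrophages it is induced by interferon-gamma (IFN-γ), in part through Irf1. H2-DO and H2-Eb2, a beta chain gene of the E type, are known mainly from B cells.

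The 63 libraries were made from polyadenylated RNA of peritoneal cells that had been recruited by 3% thioglycollate for 72 h, plated and washed to keep adherent cells. All mice were also given sustained-release buprenorphine. Donors were R1441C knock-in or B6 wild-type mice, female or male, labelled old (18 to 21 months) or young (2 to 3 months), and the cells were labelled IFN-γ (100 U for 18 h) or untreated (water as vehicle). The study asked, among other functions, whether antigen presentation depends on the mutation, sex and age. With the labels old and IFN-γ there were 5 libraries each of knock-in females, knock-in males, wild-type females and wild-type males. In that order of genotype and sex there were 5, 3, 5 and 3 labelled old and untreated, 2, 3, 3 and 5 labelled young and IFN-γ, and 5, 3, 3 and 3 labelled young and untreated. Total counts lay between 73.6 and 106.6 M per library, with 1 library below 85 M. The labels do not state that replicates came from separate animals, so the p-values measure only the spread between these libraries.

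The labels and the RNA stood against each other in several ways. Gbp2, a GTPase that IFN-γ strongly induces, was at 4370 to 6663 CPM in old IFN-γ and 5620 to 7510 CPM in old untreated libraries, against 16.7 to 882.7 CPM in young IFN-γ and 13.5 to 484.6 CPM in young untreated libraries (CPM is the count scaled to a library size of 1 M, with TMM factors). Its median with the IFN-γ and the untreated label was 5480 and 6300 CPM among old and 274 and 189 CPM among young libraries. Its ranges were thus separate by the age label and overlapped between the treatment labels. The library labels are therefore used below as labels only. All 3 libraries of knock-in old untreated males carry that name but an IFN-γ entry in their treatment field. Replicates 4 and 5 of the knock-in females labelled old and IFN-γ stood apart by sex-linked RNA: Xist was at 1.69 and 1.55 CPM in them, and the Y-linked Ddx3y at 0.624 and 0.601 CPM. Other females had at least 120 CPM of Xist, and males at least 33.9 CPM of Ddx3y. Macrophage markers were abundant, and the summed level of 9 of them was 19640 to 34740 CPM in libraries labelled old and 24400 to 39440 CPM in libraries labelled young. Lyz2 made up most of that sum, at 15300 to 28200 CPM in libraries labelled old and 19300 to 33200 CPM in those labelled young. B cell markers were also present: the sum of 14 of them ran from 198.6 to 3279 CPM in libraries labelled IFN-γ and from 125.8 to 239 CPM in those labelled untreated. Without Cd22, a receptor found here in every library at 83.5 to 176 CPM, the other 13 summed to 82.52 to 3142 CPM in IFN-γ libraries and to 24.87 to 111.5 CPM in untreated libraries. In bulk RNA, fewer cells of a type and less RNA per cell cannot be told apart.

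The class II genes are switched on through a shared pair of promoter boxes, the X box, bound by the Rfx complex, and the Y box, bound by NF-Y, on which Ciita docks. To show this shared element, promoter windows from 250 bases before to 50 bases after each start were taken from RefSeq (GRCm38.p6), in which 7 of the 10 members had an entry and Ciita, H2-Ab1 and Cd74 had none. An X letter pattern CNNGNAAC followed on the same strand, 10 to 40 bases on, by a Y pattern GATTGG was found in 6 of those 7 and in 135 of all 32851 windows (0.411%), with both strands searched. The X pattern alone stood in 39.1% and the Y pattern alone in 16.1% of all windows, the patterns were chosen after the sequences had been read, and H2-DMa had no such pair in either of its 2 windows. The lines give 80 bases each, with the X and Y letters in capitals.
H2-Aa, chr17:34287851-34287930, minus strand: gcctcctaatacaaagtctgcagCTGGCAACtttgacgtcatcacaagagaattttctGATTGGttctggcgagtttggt
H2-Eb1, chr17:34305749-34305828, plus strand: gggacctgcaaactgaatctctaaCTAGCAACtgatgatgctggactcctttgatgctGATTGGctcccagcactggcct
H2-Eb2, chr17:34325516-34325595, plus strand: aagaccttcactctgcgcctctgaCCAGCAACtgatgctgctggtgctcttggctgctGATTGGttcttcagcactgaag
H2-DMb1, chr17:34153071-34153150, plus strand: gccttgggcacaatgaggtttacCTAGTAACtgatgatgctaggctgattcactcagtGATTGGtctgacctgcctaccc
H2-Oa, chr17:34092277-34092356, plus strand: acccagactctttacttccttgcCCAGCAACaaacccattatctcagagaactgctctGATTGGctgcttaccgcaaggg
H2-Ob, chr17:34238789-34238868, plus strand: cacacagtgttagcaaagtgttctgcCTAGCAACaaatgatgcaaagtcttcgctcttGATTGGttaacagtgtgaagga
The spacing from the X to the Y letters was 27 bases in H2-Aa, H2-DMb1 and H2-Oa, 26 in H2-Eb1 and H2-Eb2, and 24 in H2-Ob. The pair stood in promoters of members with quite different expression, H2-Aa and H2-DMb1 as well as H2-Eb2 and H2-Ob.

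On a scale per transcript length, the members fell into an abundant and a scarce group. Over the 63 libraries the median FPKM was 2435 for Cd74, 753.8 for H2-Ab1, 644.5 for H2-Eb1, 541.9 for H2-Aa, 267 for H2-DMb1, 163.1 for H2-DMa and 41.58 for Ciita. The remaining members were far lower, with a median of 1.666 FPKM for H2-Oa, 0.8316 for H2-Ob and 0.324 for H2-Eb2. In libraries labelled old the medians had the same order, with H2-Oa at 2.791, H2-Ob at 1.209 and H2-Eb2 at 0.4354 FPKM. In libraries labelled young H2-Eb1 (70.13 FPKM) stood above H2-Ab1 (65.83 FPKM), and H2-Ob (0.5328 FPKM) above H2-Oa (0.3598 FPKM). The median ratio of H2-Aa to Cd74 in FPKM lay between 0.216 and 0.24 in all 4 combinations of the age and treatment labels. H2-Ob as a share of H2-DMa varied more: its median was 1.25% in old and IFN-γ, 0.361% in old and untreated, 7.05% in young and IFN-γ and 1.89% in young and untreated libraries.

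With the age label, 7 members formed a block that was higher in every library labelled old than in any labelled young. Ciita ran from 262.2 through a median of 431.2 to 505.8 CPM in the 36 libraries labelled old, against 6.385, 21.94 and 114.9 CPM in the 27 labelled young. H2-Aa was at 1677, 2474 and 3049 CPM in libraries labelled old (lowest, median and highest), against 75.06, 200.8 and 895.2 CPM in those labelled young. Cd74 was at 3464, 4888 and 6424 CPM in libraries labelled old, against 138.9, 397.6 and 1667 CPM in those labelled young. In each of these the ranges of the labels were separate. The beta chains followed the same course, with H2-Ab1 at 1554, 2332 and 2881 CPM in libraries labelled old against 64.25, 171.4 and 660.7 CPM in those labelled young. H2-Eb1, whose alpha partner is missing in B6 mice, was at 1032, 1581 and 1893 CPM in libraries labelled old against 57.99, 137.1 and 683.2 CPM in those labelled young. The peptide exchange genes did likewise, with H2-DMa at 398.4, 652.7 and 798 CPM in libraries labelled old against 29.26, 58.95 and 137.8 CPM in those labelled young. H2-DMb1 was at 332.1, 519.7 and 634.8 CPM in libraries labelled old against 34.98, 61.17 and 116.8 CPM in those labelled young. These ranges did not overlap either, and 4.79% of all tested genes had a range in libraries labelled old that lay wholly above that of libraries labelled young.

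**Figure D1:**
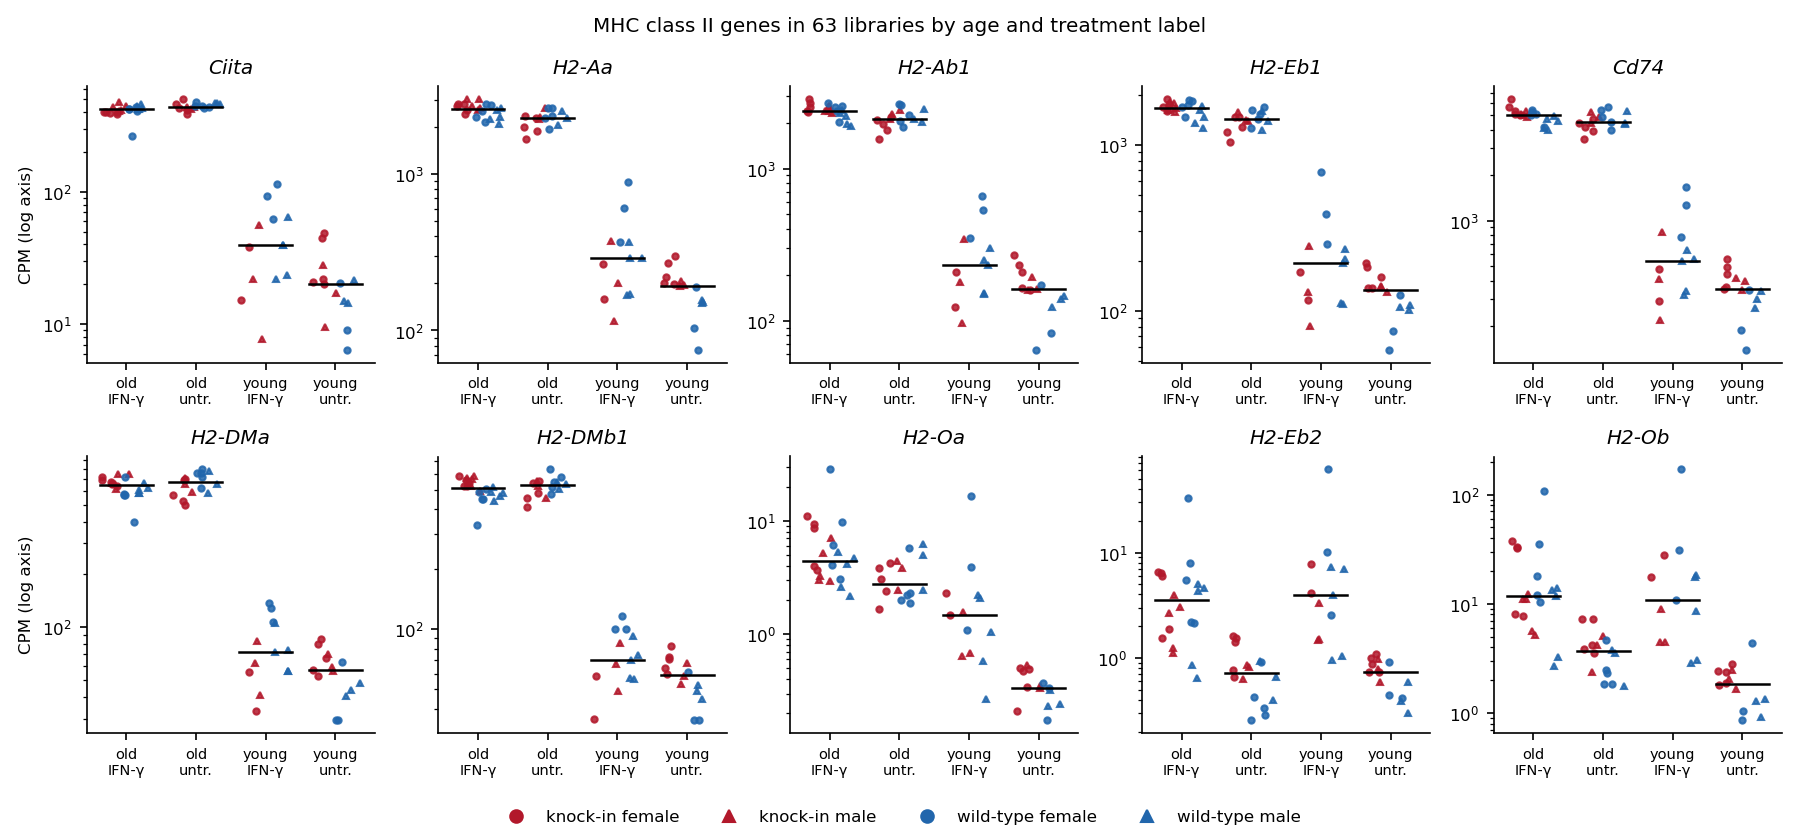
Level of each of the 10 members in CPM on a log axis, by age and treatment label, with 1 point per library (knock-in red, wild-type blue, circles female, triangles male) and a line at the median. Ciita, H2-Aa, H2-Ab1, H2-Eb1, Cd74, H2-DMa and H2-DMb1 are separated by the age label with no overlap, while H2-Eb2 and H2-Ob are higher with the IFN-γ label in both ages.

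In the fit of all genes (edgeR quasi-likelihood test, Benjamini-Hochberg adjusted p under 0.05, averaged over the 8 combinations of genotype, sex and treatment label), 8 of the 10 members were higher with the old label. Of all tested genes, 70.8% were called in this comparison and 31.9% were called higher, so a call alone was common here. The median log2 change was 3.36 over the members and -0.07 over all genes. The change was 3.98 ± 0.16 for Ciita (log2, SE; adjusted p = 6.29e-29), a 15.8-fold higher level. It was 3.56 ± 0.11 for H2-Ab1 (11.8-fold), 3.46 ± 0.11 for Cd74 (11.0-fold), 3.42 ± 0.11 for H2-Aa (10.7-fold) and 3.41 ± 0.09 for H2-DMa (10.6-fold). H2-Eb1 followed with 3.30 ± 0.10 (9.85-fold) and H2-DMb1 with 3.05 ± 0.07 (8.29-fold). For these 7 and for H2-Oa, a subunit of the exchange inhibitor, the difference was positive in all 8 combinations. The H2-Oa change was 2.45 ± 0.25 (5.46-fold, adjusted p = 7.83e-13), with 0.53 to 4.09 over the combinations and 93.1% of library pairs higher with the old label.

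The 2 members best known from B cells did not follow the age label in this way. H2-Eb2 was at 0.2555, 1.478 and 32.85 CPM in libraries labelled old, against 0.3003, 1.006 and 61.84 CPM in those labelled young, and its change was -0.16 ± 0.31 (adjusted p = 0.678 by edgeR). H2-Ob was at 1.778, 6.459 and 108.5 CPM in libraries labelled old, against 0.8582, 2.879 and 171 CPM in those labelled young, and its change was 0.42 ± 0.25 (adjusted p = 0.132). For both genes the ranges overlapped almost fully, with 52.1% of library pairs higher with the old label for H2-Eb2 and 64.8% for H2-Ob. The sign was positive in 3 of the 8 combinations for H2-Eb2 and in 6 of 8 for H2-Ob. The H2-Ob difference was called when the 4 libraries that stood apart were left out (0.64 ± 0.20, adjusted p = 0.0039) and when the mean level of the 14 B cell markers in each library was added to the fit (0.68 ± 0.06, adjusted p = 6e-14). The 4 libraries are knock-in old IFN-γ females 4 and 5 and wild-type old IFN-γ female 2 and young IFN-γ female 1. The wild-type libraries among them held the highest H2-Ob of their age labels (108.5 and 171 CPM) and the highest B cell marker sums (2338 and 3279 CPM). Leaving them out thus selects on the gene tested, and no conclusion is drawn from that call.

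Split by the treatment label, the old label went with 8 members higher among IFN-γ libraries, against 63.4% of all genes called and 28.6% called higher. Among untreated libraries it went with 9 members higher, against 60.7% called and 28.1% called higher. For Ciita the change was 3.37 ± 0.22 among IFN-γ and 4.59 ± 0.21 among untreated libraries. For H2-Oa it was 1.56 ± 0.30 among IFN-γ and 3.34 ± 0.39 among untreated libraries. H2-Ob stood at -0.11 ± 0.32 among IFN-γ libraries (adjusted p = 0.784) and at 0.96 ± 0.38 among untreated libraries, where it was called (adjusted p = 0.0286). The test of the difference between these, given below as an interaction, did not call it (adjusted p = 0.363). Other genes that IFN-γ induces moved with the same label: all 11 of the list examined were higher with the old label (median log2 change 4.68), and their summed level was 11050 to 18290 CPM in libraries labelled old and 150.2 to 2079 CPM in those labelled young. Of 7 dendritic cell markers, 5 were higher and 1 was lower with the old label, and their summed level was 59.9 to 210.8 CPM in libraries labelled old and 3.218 to 44.47 CPM in those labelled young. Clec9a made up most of that sum: without it the other 6 came to 2.964 to 31.93 CPM in libraries labelled old and 2.135 to 29.33 CPM in those labelled young. Clec9a rose by 4.53 and Xcr1 by 3.47 on the log2 scale, whereas Cd209a fell by 3.36, and Zbtb46, a transcription factor of classical dendritic cells, was not called. No marker of that list was at 0 throughout a label group. The part of dendritic cells and of an IFN-γ response in the members' difference was not tested.

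**Figure D2:**
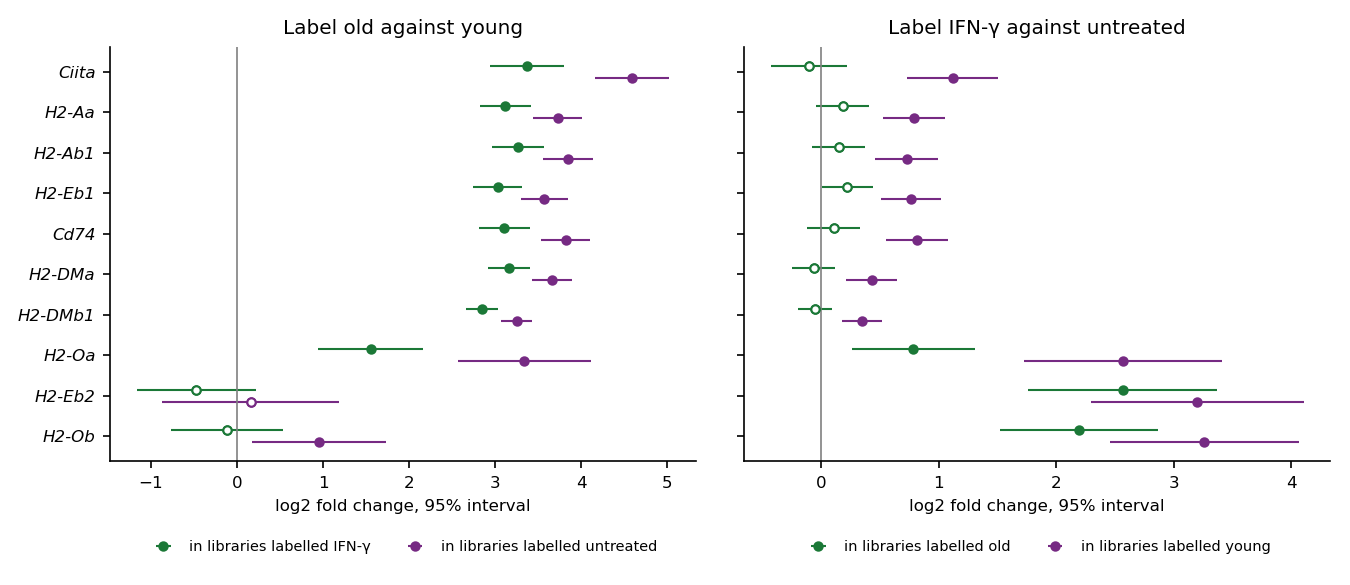
Log2 fold changes of the 10 members with 95% intervals; on the left old against young label, among IFN-γ-labelled (green) and untreated-labelled (purple) libraries, on the right IFN-γ against untreated label, among libraries labelled old (green) and young (purple). Hollow points were not called at an adjusted p of 0.05; Ciita changed by 3.37 and 4.59 with the age label, and H2-Eb2 by 2.57 and 3.20 with the treatment label.

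With the treatment label the scarce members differed most. H2-Eb2 was at 0.6506, 3.925 and 61.84 CPM in the 33 libraries labelled IFN-γ (lowest, median and highest), against 0.2555, 0.7331 and 1.63 CPM in the 30 labelled untreated. H2-Ob was at 2.714, 11.7 and 171 CPM in libraries labelled IFN-γ, against 0.8582, 2.412 and 7.302 CPM in those labelled untreated. H2-Oa was at 0.2664, 3.237 and 28.49 CPM in libraries labelled IFN-γ, against 0.1737, 1.78 and 6.229 CPM in those labelled untreated. Of library pairs, 94.9% were higher with the IFN-γ label for H2-Eb2, 94.2% for H2-Ob and 73.7% for H2-Oa, and the ranges overlapped for all 3. Of the 30 untreated libraries, 18 reached the lowest IFN-γ library for H2-Eb2, 12 for H2-Ob and 26 for H2-Oa. For the abundant members the share of library pairs higher with the IFN-γ label ran from 50.9% (Ciita) to 69.3% (H2-Eb1). Ciita, the least separated, was at 7.74, 402.3 and 477 CPM in libraries labelled IFN-γ, against 6.385, 400.4 and 505.8 CPM in those labelled untreated.

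Averaged over genotype, sex and age label, all 10 members were higher with the IFN-γ label, against 26.0% of all genes called and 12.0% called higher. The differences were 2.88 ± 0.30 for H2-Eb2 (adjusted p = 1.4e-10), 2.73 ± 0.26 for H2-Ob (adjusted p = 1.05e-11) and 1.68 ± 0.25 for H2-Oa (adjusted p = 8.03e-07). Among the abundant members they were 0.51 ± 0.13 for Ciita, 0.49 ± 0.09 for H2-Aa, 0.49 ± 0.08 for H2-Eb1, 0.46 ± 0.09 for Cd74 and 0.44 ± 0.09 for H2-Ab1. The exchange genes H2-DMa (0.18 ± 0.07, adjusted p = 0.0454) and H2-DMb1 (0.15 ± 0.06, adjusted p = 0.0403) lay closest to the threshold. Leaving out 1 library at a time ended the H2-DMa call in 24 of 63 fits and the H2-DMb1 call in 11. The replicate number as a block ended both calls (adjusted p = 0.105 and 0.11).

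The B cell markers moved with the same label. Of the 14, 13 were higher with the IFN-γ label (median log2 change 3.07) and 1, Cd22, was lower. Resident peritoneal macrophage markers were higher with this label in 4 of 6 cases (median 0.65). When the mean B cell marker level of each library was added to the fit, none of the 7 abundant members was called with the treatment label. Cd74 then stood at 0.11 (adjusted p = 0.72), Ciita at 0.28 and H2-Aa at 0.20. The 3 scarce members turned in direction in that fit: H2-Oa to -0.76 ± 0.20 (adjusted p = 0.0038), H2-Ob to -0.43 ± 0.12 (adjusted p = 0.0087) and H2-Eb2 to -0.51 ± 0.20 (adjusted p = 0.065). The marker level itself moved with the treatment label, so this fit cannot separate the label from the markers. No conclusion is drawn from the lost calls or the turned signs. T and NK cell markers were also higher with the IFN-γ label in 5 of 7 cases, with sums of 1.297 to 23.66 CPM in libraries labelled IFN-γ and 0.68 to 4.064 CPM in those labelled untreated, and the part of these cells was not tested.

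**Figure D3:**
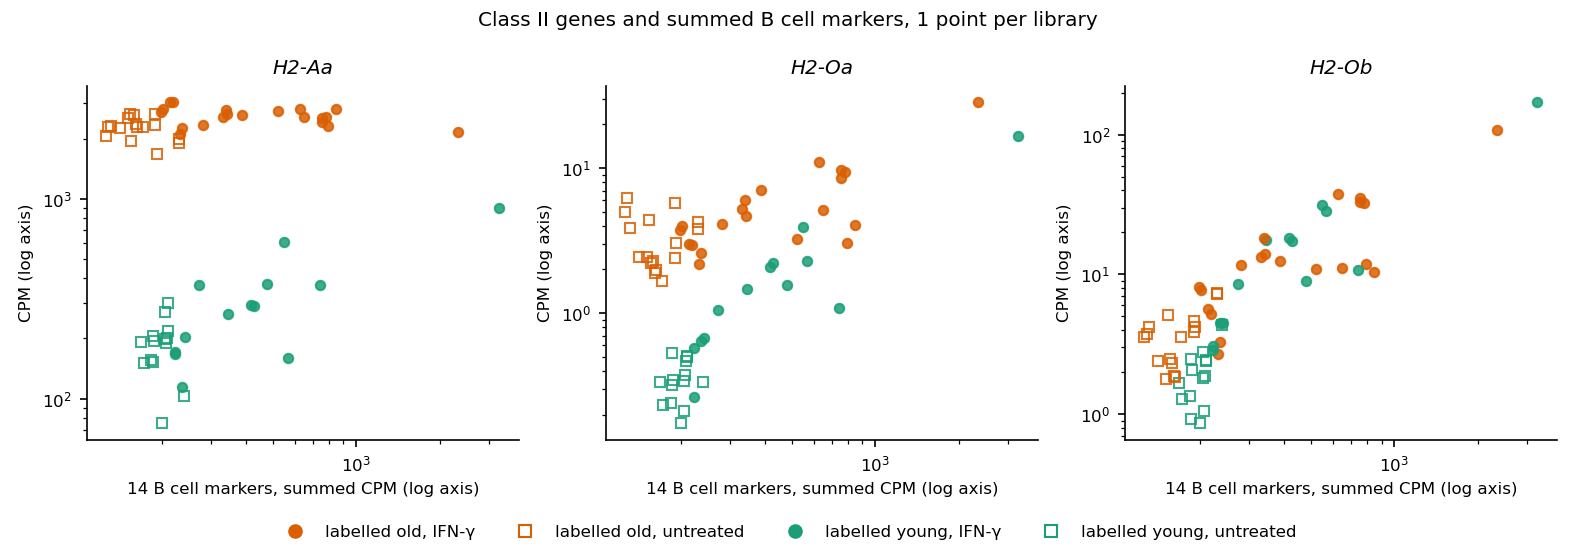
Level of H2-Aa, H2-Oa and H2-Ob in CPM against the summed CPM of 14 B cell markers (Cd22 included), both on log axes, with 1 point per library (orange labelled old, green labelled young; filled labelled IFN-γ, open squares labelled untreated). H2-Ob rises along the marker sum in both ages, H2-Aa forms 2 levels by the age label, and H2-Oa shows both patterns.

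The treatment label was also compared within each age label. Among libraries labelled old, 3 members were higher with the IFN-γ label, against 11.2% of all genes called and 5.64% called higher. These were H2-Eb2 (2.57 ± 0.40, adjusted p = 6.07e-06), H2-Ob (2.19 ± 0.34, adjusted p = 4.41e-06) and H2-Oa (0.78 ± 0.26, adjusted p = 0.0385). The H2-Oa call was lost in 19 fits without 1 library. The 7 abundant members lay between -0.10 and 0.22 and were not called. With the B cell marker level in the fit the 3 called members were called lower instead: H2-Eb2 at -0.70 (adjusted p = 0.0189), H2-Oa at -1.51 (adjusted p = 5.77e-08) and H2-Ob at -0.85 (adjusted p = 3.01e-06). That level moved with the label, and within groups it tracked H2-Ob, H2-Eb2 and H2-Oa (Spearman rho 0.971, 0.908 and 0.855). The lower calls can come from the adjustment itself, so no effect of the label is read from them. Among libraries labelled young all 10 members were higher with the IFN-γ label, against 19.1% called and 9.86% called higher. Here Ciita was at 7.74, 39.49 and 114.9 CPM in libraries labelled IFN-γ, against 6.385, 20.13 and 48.72 CPM in those labelled untreated, and differed by 1.12 ± 0.19 (adjusted p = 3.87e-05). H2-Aa was at 114.4, 291.6 and 895.2 CPM in libraries labelled IFN-γ, against 75.06, 193 and 300.3 CPM in those labelled untreated, and differed by 0.79. For both genes the ranges overlapped. Cd74 differed by 0.82 ± 0.13 (adjusted p = 1.37e-05), and H2-Eb2, H2-Oa and H2-Ob by 3.20 ± 0.45, 2.57 ± 0.42 and 3.26 ± 0.40. With the B cell marker level in the fit, 2 members were still called among libraries labelled young, Ciita (0.87 ± 0.31, adjusted p = 0.046) and H2-DMa (0.50 ± 0.17, adjusted p = 0.041). The marker level moved with the label here too, so the calls that were lost are not read either. Of the 11 IFN-γ response genes, 10 were higher with the IFN-γ label among libraries labelled young (median 0.96) and 0 were called by edgeR among those labelled old (median -0.03, 1 at an unadjusted p under 0.05), and their part in the members' difference was not tested.

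The difference between those treatment effects was itself tested as an interaction of the labels. It was called for 2 members, both lower in libraries labelled old, against 0.497% of all genes called and 0.447% called lower. These were Ciita (-1.22 ± 0.25, adjusted p = 0.0088) and Cd74 (-0.71 ± 0.17, adjusted p = 0.0409). The other 8 lay between -0.40 and -1.78 with adjusted p of 0.0811 to 0.713, so for them a difference between the ages was not shown by this test. At an unadjusted p under 0.05 in edgeR there were 9 members, against 12.7% of all genes. DESeq2 called 7 members, all lower. The Cd74 call was lost in 26 of 63 fits without 1 library, the Ciita call in 1, without knock-in young IFN-γ female 2. With the replicate block 0 members were called (Ciita adjusted p = 0.0764, Cd74 adjusted p = 0.164). Of the IFN-γ response genes 2 of 11 were lower in the same test.

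Between the genotypes no member was called on average. The knock-in against wild-type test called 0 of 10 members, with 0 at an unadjusted p under 0.05 and 0 by DESeq2, against 1.16% of all genes called by edgeR. The differences lay between -0.22 and 0.00 on the log2 scale. For H2-Aa the difference was -0.03 with a 95% interval of -0.20 to 0.14, for Ciita -0.10 with -0.35 to 0.16, and for H2-Ob -0.09 with -0.60 to 0.42. The interval was widest for the B-cell-type members.

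**Figure D4:**
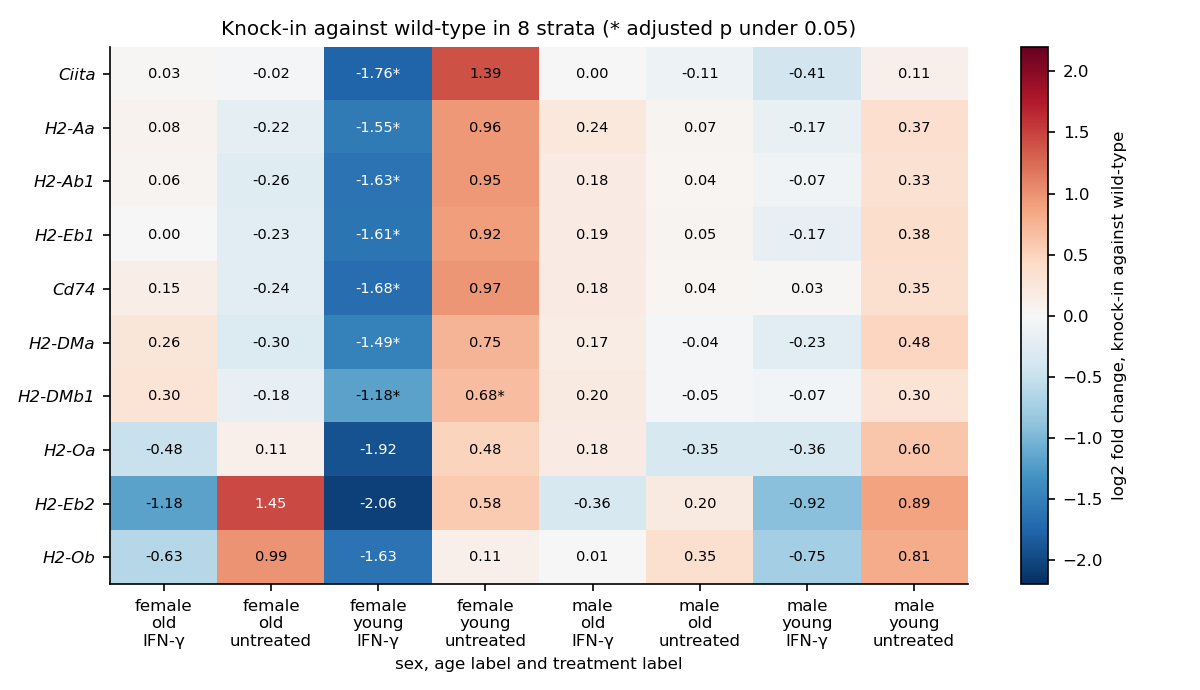
Heatmap of the log2 fold change, knock-in against wild-type, of the 10 members in the 8 combinations of sex, age label and treatment label, with an asterisk at an adjusted p under 0.05. The called values are 7 lower ones in young IFN-γ females and the higher H2-DMb1 in young untreated females.

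Among young IFN-γ females, 7 members were lower in knock-in than in wild-type libraries, against 6.74% of all genes called and 3.79% called lower. Ciita was at 15.2 and 37.9 CPM in the 2 knock-in libraries, against 115, 62.0 and 93.6 CPM in the 3 wild-type libraries (replicates 1, 2 and 5). H2-Aa was at 159 and 266 CPM in knock-in libraries, against 895, 369 and 609 CPM in wild-type libraries. Cd74 was at 292 and 479 CPM in knock-in libraries, against 1667, 775 and 1259 CPM in wild-type libraries. Each knock-in value lay below each wild-type value, as it did for all 7; among all genes, 16.6% had this order without overlap. The exchange genes gave the smallest p. H2-DMa was at 33.1 and 55.2 CPM in knock-in libraries, against 138, 106 and 129 CPM in wild-type libraries, a change of -1.49 ± 0.26 (adjusted p = 0.000276). H2-DMb1 was at 35.4 and 58.6 CPM in knock-in libraries, against 101, 101 and 117 CPM in wild-type libraries, a change of -1.18 ± 0.20 (adjusted p = 0.000241). The other changes were -1.76 ± 0.46 for Ciita (adjusted p = 0.014), -1.55 ± 0.32 for H2-Aa, -1.63 ± 0.32 for H2-Ab1, -1.61 ± 0.31 for H2-Eb1 and -1.68 ± 0.32 for Cd74.

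The B-cell-type members of the same libraries were spread widely. H2-Ob was at 28.3 and 17.6 CPM in knock-in libraries, against 171, 10.8 and 31.4 CPM in wild-type libraries, and H2-Eb2 at 7.73 and 4.12 CPM, against 61.8, 2.55 and 10.1 CPM. Their ranges overlapped, and H2-Ob (-1.63, adjusted p = 0.228), H2-Eb2 (-2.06, adjusted p = 0.134) and H2-Oa (-1.92, adjusted p = 0.0991) were not called. The high value was wild-type library 1 in each case, and it also held the highest B cell marker sum: 569 and 346 CPM in knock-in libraries against 3279, 738 and 550 CPM in wild-type libraries. The resident peritoneal macrophage sum was 94.7 and 110 CPM in knock-in libraries against 2502, 78.4 and 71.1 CPM in wild-type libraries. The IFN-γ response sum of the same libraries was 184 and 727 CPM in knock-in against 1810, 1535 and 2079 CPM in wild-type libraries, with every knock-in below every wild-type value. The dendritic marker sum was 6.16 and 13.6 CPM in knock-in against 44.5, 22.5 and 27.5 CPM in wild-type libraries. Without Clec9a that sum was 4.63 and 6.12 CPM in knock-in against 29.3, 5.00 and 8.31 CPM in wild-type libraries, with overlap. The Y-linked Ddx3y was at 0.120 and 1.41 CPM in knock-in and at 5.89, 0.125 and 8.93 CPM in wild-type libraries of these females. The part of these differences in the members' result was not tested. Without knock-in library 1 no member was called (edgeR; H2-Aa -1.22, adjusted p = 0.149), and without knock-in library 2 there were 7. Either fit leaves 1 knock-in library, which is assumed to vary like the other groups. Without wild-type library 1 there were 6, and Ciita was lost (-1.54, adjusted p = 0.0643). Without wild-type library 5 there were 7, and without wild-type library 2 there were 9.

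Among young untreated females the signs were turned. H2-Aa was at 219, 300, 198, 201 and 271 CPM in the 5 knock-in libraries, against 103, 75.1 and 189 CPM in the 3 wild-type libraries. Ciita was at 20.0, 45.0, 21.9, 20.8 and 48.7 CPM in knock-in libraries, against 9.03, 6.39 and 20.3 CPM in wild-type libraries. H2-DMb1 was at 72.6, 82.9, 64.4, 59.6 and 71.4 CPM in knock-in libraries, against 35.0, 35.0 and 61.2 CPM in wild-type libraries. The highest wild-type library, replicate 5, reached the lowest knock-in libraries for Ciita and H2-DMb1 but not for H2-Aa. Only H2-DMb1 was called (0.68 ± 0.16, adjusted p = 0.028), 1 of 10 members, against 0.452% of all genes called and 0.235% called higher. Another 6 members had log2 changes of 0.75 (H2-DMa) to 1.39 (Ciita) and adjusted p between 0.0504 and 0.0622. DESeq2 called 7 members, as did edgeR without wild-type library 5, without the 4 libraries that stood apart, or with the B cell marker level in the fit. None of those 4 libraries is a young untreated female, so leaving them out altered only what the fit shares across groups. No member was called without knock-in library 2, without wild-type library 1 or 4, or with the replicate block (H2-DMb1 adjusted p = 0.119). The IFN-γ response sum was 508 to 1185 CPM in knock-in and 257, 150 and 509 CPM in wild-type libraries, and its part was not tested. Ddx3y was at 0.102 to 4.37 CPM in the same knock-in and 0.347 to 1.48 CPM in the wild-type libraries.

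**Figure D5:**
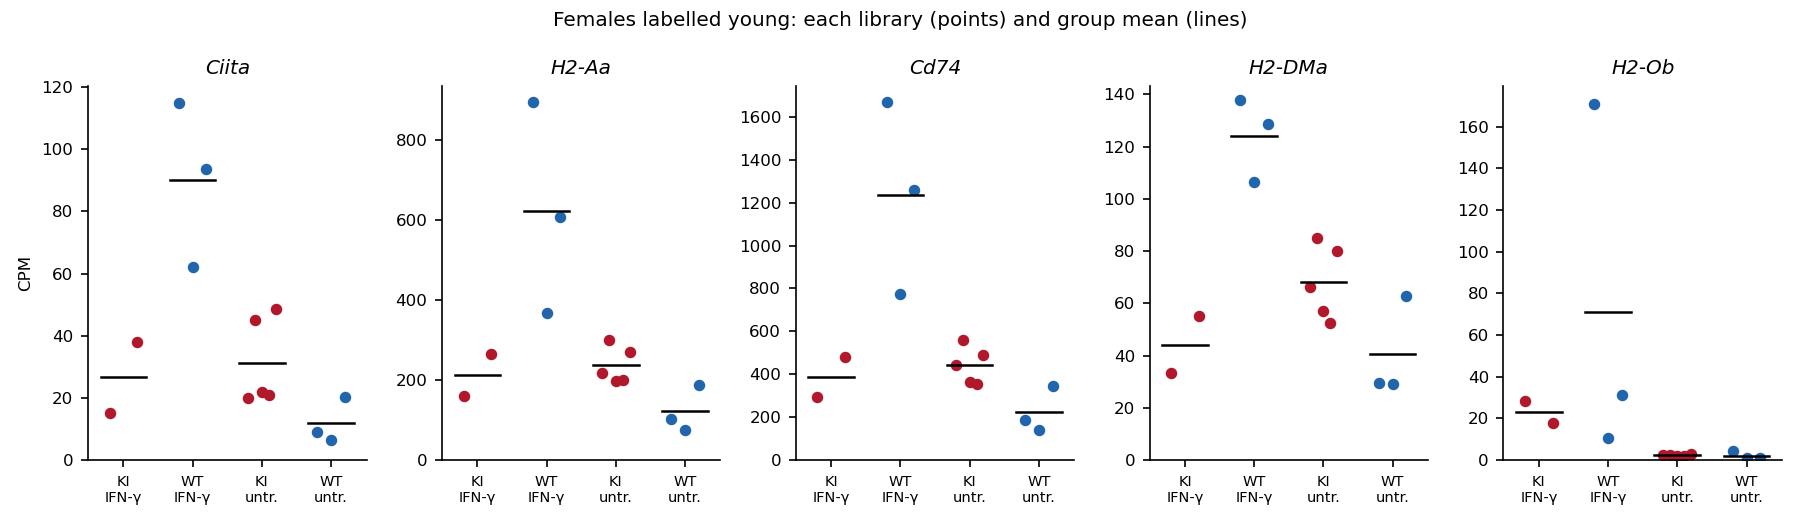
Level in CPM, on linear axes from 0, of Ciita, H2-Aa, Cd74, H2-DMa and H2-Ob in each library of females labelled young (knock-in and wild-type IFN-γ, then knock-in and wild-type untreated), with a line at the mean. H2-Aa is lower in knock-in than wild-type libraries with the IFN-γ label (159 and 266 against 895, 369 and 609 CPM) and higher with the untreated label (198 to 300 against 75.1 to 189 CPM).

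In the other 6 combinations 0 of 10 members were called by edgeR or by DESeq2. The share of all genes called by edgeR was 5.81% in old IFN-γ females, 0.0181% in old untreated females, 6.64% in old IFN-γ males, 0.00452% in old untreated males, 0.149% in young IFN-γ males and 0.0135% in young untreated males. At an unadjusted p under 0.05 there were 2 members in old IFN-γ females, 1 in young untreated males and 0 in the other 4. In young IFN-γ males H2-Aa differed by -0.17 with a 95% interval of -0.65 to 0.32, and in old IFN-γ females by 0.08 with -0.34 to 0.50.

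The genotype effect with the IFN-γ label minus that with the untreated label was tested over all strata. It was called for 8 members, all lower, against 11.9% of all genes called and 5.58% called lower. The median genotype changes over the members were widest apart in young females, at -1.63 with the IFN-γ and 0.83 with the untreated label. In that order they were -0.20 and 0.37 in young males, 0.05 and -0.20 in old females, and 0.18 and 0.04 in old males. The mean over strata therefore does not describe each stratum. These medians hide the scarce members. In old females mean H2-Eb2 was 4.472 CPM in knock-in and 10.11 CPM in wild-type IFN-γ libraries, where 1 wild-type library reached 32.85 CPM. With the untreated label it was 1.204 and 0.4445 CPM. In the same order mean H2-Ob was 23.8 and 36.79 CPM, then 5.225 and 2.633 CPM. H2-Eb1 differed by -0.68 ± 0.17 (adjusted p = 0.00702), H2-DMa by -0.55 ± 0.14 (adjusted p = 0.0101) and H2-Aa by -0.64 ± 0.17 (adjusted p = 0.0125). Ciita differed by -0.88 ± 0.25, Cd74 by -0.61 ± 0.17, H2-Ab1 by -0.63 ± 0.17, H2-DMb1 by -0.37 ± 0.11 and H2-Eb2 by -1.91 ± 0.62, with adjusted p of 0.0147 to 0.0352. H2-Ob (-1.32, adjusted p = 0.0755) and H2-Oa (-0.86, adjusted p = 0.266) were not called. Of the B cell markers 10 of 14 were lower in the same test, and of the IFN-γ response genes 6 of 11. With the B cell marker level in the fit, Ciita (-0.75), H2-DMa (-0.58) and H2-DMb1 (-0.39) were still called lower, while H2-Ob was called higher (0.56 ± 0.14, adjusted p = 0.0027). Without knock-in young IFN-γ female 1 the count was 4, without the 4 libraries that stood apart it was 7, and with the replicate number as a block it was 0.

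A difference of the genotype effect between age labels or sexes was called for no member. By age label 0 of 10 members were called by edgeR and by DESeq2, 0 had an unadjusted p under 0.05, and the differences lay between 0.11 and 0.55, against 0% of all genes called. By sex 0 of 10 were called by both tools, 3 had an unadjusted p under 0.05, and the differences lay between -0.47 and 0.01, also against 0% of all genes called. For H2-Aa the difference was 0.14 by age label, with a 95% interval of -0.21 to 0.49, and -0.31 by sex, with -0.66 to 0.04.

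Between the sexes, the B-cell-type members were higher in females. H2-Ob was at 7.787, 28.26 and 171 CPM in the 15 IFN-γ libraries of females (lowest, median and highest), against 2.714, 8.718 and 18.22 CPM in the 18 of males. H2-Eb2 was at 1.543, 6.015 and 61.84 CPM in IFN-γ libraries of females, against 0.6506, 2.867 and 7.225 CPM in those of males. The ranges overlapped, with the highest values all in females. Over all strata H2-Ob differed by 1.17 ± 0.25 (adjusted p = 0.0014) and H2-Eb2 by 0.93 ± 0.31 (adjusted p = 0.037), 2 of 10 members called, against 13.6% of all genes called and 7.13% called higher. The other members differed by 0.01 to 0.62 and were not called. Of the 14 B cell markers 12 were higher in females, as were 6 of 6 resident peritoneal macrophage markers (median 0.80) and 3 of 7 dendritic cell markers, and the part of the last 2 lists was not tested. With the B cell marker level in the fit the H2-Ob difference was -0.08 (adjusted p = 0.6) and that of H2-Eb2 -0.40 (adjusted p = 0.044), and without the 4 libraries that stood apart H2-Eb2 was at 0.59 (adjusted p = 0.0868). With the replicate block neither was called (adjusted p = 0.106 for H2-Ob and 0.368 for H2-Eb2).

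Within groups, the members varied in partly separate company. Deviations from the 16 group means of log2 CPM were correlated over the 63 libraries, as a description without a test, since the libraries share depth, scaling and cell mixture. H2-Ab1 went with Cd74 at a Spearman rho of 0.973 and with H2-Eb1 at 0.95, and H2-Eb2 went with H2-Ob at 0.931. H2-Oa stood with H2-Ob at 0.883. Between the scarce and the abundant members the values were lower, from -0.141 for H2-Eb2 and H2-DMa to 0.378 for H2-Ab1 and H2-Oa. They were 0.18 for H2-Aa and H2-Ob and -0.052 for H2-DMa and H2-Ob. Against the mean B cell marker level, rho was 0.971 for H2-Ob, 0.908 for H2-Eb2 and 0.855 for H2-Oa, and it lay between -0.081 and 0.286 for the other 7 members. Other lists parted the members less. Against the IFN-γ response genes rho ran from 0.389 (H2-DMa) to 0.685 (Ciita), with H2-Ob at 0.515. H2-Ob, H2-Eb2 and H2-Oa also stood at 0.567 to 0.614 against T and NK cell and 0.5 to 0.557 against dendritic cell markers. The other 7 were at 0.195 to 0.471 and 0.316 to 0.508.

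The genes nearest to each member by that measure, of 10826 genes with a mean of at least 1 CPM, were also distinct. For H2-Aa they were Psmb8 (0.804), Rnf19b (0.798), Psmb9 (0.772), Rnase6 (0.757) and Ifi47 (0.747), of which Psmb8 and Psmb9 are subunits of the immunoproteasome. For Ciita they were Gbp3 (0.873), Ifit2 (0.797), Irf1 (0.778), Serpina3f (0.773) and Flt4 (0.769). The neighbours of H2-Ob were Gimap3 (0.976), Gimap4 (0.969), Lax1 (0.966) and Blk (0.962), of which Blk is a kinase of B cells. Those of H2-Eb2 were Fcmr (0.943), the receptor for IgM, Lax1 (0.936), Ikzf3 (0.935), Gimap3 (0.93) and Pax5 (0.928), the factor that fixes B cell identity. Those of H2-Oa were Lck (0.895), H2-Q7 (0.894), H2-Q6 (0.892), Gimap3 (0.886) and Fcmr (0.883).

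Of 25 other genes of the pathway 24 were tested, and they did not move as the members did. With the old label 13 were higher, 7 were lower and 4 were not called, with a median log2 change of 0.20. Upstream of Ciita, Irf1 (3.84 ± 0.12), a transcription factor that IFN-γ induces, was higher. On the class II promoters Rfx5, a subunit of the X box complex, was higher (1.13 ± 0.09), while Nfya, a subunit of NF-Y, was lower (-0.80 ± 0.03). Their partners did not all follow. Of library pairs, 92.8% were higher with the old label for Nfyb, 83.3% for Nfyc, 58.8% for Rfxank and 39.8% for Rfxap. Among proteases, Ctsl (-1.82 ± 0.09) and Ctsd (-1.17 ± 0.07), the cathepsins L and D, were lower. Other proteases were mixed, with 100% of library pairs higher for Ctsh and 66% for Ctss, but 12.8% for Ctsb and 3.7% for Lgmn. Ifi30, the endosomal thiol reductase (1.57 ± 0.05), and Sppl2a, which cleaves the membrane stub of the invariant chain (0.95 ± 0.04), were higher. Marchf8, a ubiquitin ligase of surface class II, was lower (-0.20 ± 0.03), whereas 97.9% of library pairs were higher with the old label for Marchf1. All of the changes given here with an SE had an adjusted p of 1.1e-09 or less in edgeR.

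With the IFN-γ label 6 of the 24 were higher, 6 lower and 12 not called. Among those higher were H2-DMb2 (0.77 ± 0.10, adjusted p = 5.2e-08), Marchf1 (0.24, adjusted p = 0.0011) and Prdm1 (0.19, adjusted p = 0.0047). Among those lower were Marchf8 (-0.12, adjusted p = 0.00061), Ctsl (-0.38, adjusted p = 0.0012), Ifi30 (-0.16, adjusted p = 0.0095) and Ctsd (-0.21, adjusted p = 0.017). H2-DMb2, the second beta chain of H2-DM, was at 41.88, 55.57 and 100.6 CPM in libraries labelled old, against 5.159, 8.568 and 111.9 CPM in those labelled young, with overlap. Its old label difference was 2.32 ± 0.11, and the interaction of the age and treatment labels was -1.17 (adjusted p = 0.0011). Between the genotypes edgeR called 0 of the 24 on average, with 7 at an unadjusted p under 0.05. In young IFN-γ females 3 were lower and 1 was higher in knock-in libraries, among them Irf1 (-1.17) and H2-DMb2 (-1.75), both lower, and Nfya (0.38), higher. In old IFN-γ males 4 were higher, in old IFN-γ females 3 were higher and 1 lower, and in the other 5 combinations edgeR called 0, with 0 to 6 at an unadjusted p under 0.05.

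Some members share reads or strands with other genes. Of the 50-base windows of the H2-DMb1 transcripts 27.2% also occur in H2-DMb2, as do 5.74% of the 150-base windows, so a split of reads between these copies is uncertain, while H2-Eb1 and H2-Eb2 share none. Exons of Dexi, BC051537 and Brd2 overlap those of Ciita, H2-Oa and H2-DMa on the opposite strand, and whether counting used the strand is not given in the sources used here. H2-Ea, listed as H2-Ea-ps, had 0 to 6 counts per library and 0 in 52 of 63.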

How the data were processed

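The authors deposited a table of read counts, in whole numbers, and a table of FPKM values. The submitters' processing notes name STAR 2.7.9a, DESeq2 1.40.2 and the GRCm39 build. How reads were counted, with which annotation and strand setting, is not given in the sources used. Each deposited FPKM value equalled its count times a factor of the gene and a factor of the library (largest SD of the log ratio 2.9e-08 over 11822 genes). They were used only for levels between genes. Symbols came from a GRCm38 annotation, which matched 52073 identifiers and left 4675 unmatched.

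Counts were filtered with filterByExpr over the 16 groups and scaled with TMM factors of 0.886 to 1.233. All 63 libraries entered a single edgeR 4.0.16 quasi-likelihood fit across all genes (R 4.3.3), with 20 contrasts and Benjamini-Hochberg adjustment within each at 0.05. Adjusted p-values are from this fit unless another tool is named. Alternatives were DESeq2 1.42.0, RLE size factors, no low count filter, a replicate block, a B cell marker covariate, and leaving out single libraries, the 4 that stood apart or the 3 with conflicting labels. Every member is named, with up to 4 pathway genes each way by smallest p and the 5 nearest genes of 5 members, except that some genes the rule names are not reported here. Members and lists were chosen with earlier results of these data known. Nothing in the counts shows the R1441C change, so the genotype could not be checked; Lrrk2 itself was at 96.1 to 226 CPM in libraries labelled old and IFN-γ, 80.2 to 269 with old and untreated, 23.8 to 182 with young and IFN-γ and 23.4 to 40.7 with young and untreated labels. Total counts per library had a median of 98.2 M.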

Additional observations from a re-analysis of the deposited data

Results flagged for a closer look

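In 7 of 80 combinations of a member and a group of 4 to 10 libraries, 1 library lay far from the others by Dixon's criterion, which chance meets in about 1 group in 20. The first 4 are wild-type old IFN-γ female 2, with the lowest Ciita of its group (262 CPM) and the highest H2-Eb2 (32.8 CPM), H2-Oa (28.5 CPM) and H2-Ob (108 CPM). The other 3 are wild-type old untreated female 1, with the highest H2-Eb2 (0.918 CPM), H2-Oa (5.71 CPM) and H2-Ob (4.63 CPM) of its group.

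The effect of the IFN-γ label differed between the age labels, by an interaction test in edgeR, for Ciita (-1.22, adjusted p = 0.0088) and Cd74 (-0.71, adjusted p = 0.0409). The genotype effect differed between the treatment labels for Ciita (-0.88, adjusted p = 0.0183), H2-Aa (-0.64, adjusted p = 0.0125), H2-Ab1 (-0.63, adjusted p = 0.0147), H2-Eb1 (-0.68, adjusted p = 0.00702), H2-Eb2 (-1.91, adjusted p = 0.0352), Cd74 (-0.61, adjusted p = 0.0177), H2-DMa (-0.55, adjusted p = 0.0101) and H2-DMb1 (-0.37, adjusted p = 0.0227). These are means over strata. The median genotype changes over the members were widest apart in young females and not lower with the IFN-γ label in old females or old males. H2-Eb2 departed from that median in old females. Its knock-in mean was below the wild-type mean with the IFN-γ label and above it with the untreated label.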

How the results depend on the processing

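The age label counts of members (8 on average, 8 among IFN-γ and 9 among untreated libraries) kept within 1.5 times under every alternative run. Elsewhere the number of members called changed, and the cause was not tested. The B cell marker covariate gave 2 for the IFN-γ label (lower), 3 among libraries labelled old (lower), 2 among young, 4 for its interaction with the age label, 4 for genotype by treatment label, 1 for sex (lower), 1 in old IFN-γ, 1 in old untreated and 7 in young untreated females for genotype. The replicate block, and likewise the joining of the closest libraries, which was added after seeing the data, gave 0 for genotype by treatment label, 0 for the interaction of the labels and 0 for genotype in young untreated females. For sex the block gave 0 and the joining 1, and for genotype in young IFN-γ females the joining gave 2. DESeq2 gave 7 for the interaction and 7 in young untreated females, where RLE factors gave 2. Without the 4 libraries that stood apart the counts were 1 for the interaction, 1 for sex and 7 in young untreated females; without the 3 with conflicting labels they were 1 for the interaction and 1 for sex; no low count filter gave 1 for sex.

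Signs turned in 17 results, all with the covariate. The B cell markers behind it themselves moved with the treatment label, with sex and in the genotype by treatment test. No conclusion is drawn from these turns. For H2-Eb2 they were -0.51 (IFN-γ label), -0.70 (old), -0.33 (young), -0.40 (sex) and 0.14 (genotype by treatment). For H2-Oa they were -0.76, -1.51 and -0.014 for the IFN-γ label and -1.08 for genotype in old untreated females. For H2-Ob they were -0.43, -0.85 and -0.001 for the IFN-γ label, -0.082 for sex, 0.56 for genotype by treatment, 0.50 in old and 0.58 in young IFN-γ females for genotype, and 0.26 for the old label among IFN-γ libraries.

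Leaving out each library in turn gave 8 to 9 members for the old label, 8 to 9 for it among IFN-γ and 8 to 9 among untreated libraries. The range was 8 to 10 for the IFN-γ label, 2 to 3 for it among libraries labelled old and 9 to 10 among young. It was 0 to 8 for the interaction of the labels, 4 to 9 for genotype by treatment label, 0 to 9 for genotype in young IFN-γ and 0 to 7 in young untreated females, 1 to 3 for sex, and 0 to 0 for the other genotype tests. H2-Eb2 lost its sex call in 9 of these fits, and H2-Ob its old label call among untreated libraries in 2, without wild-type young untreated females 4 and 5.

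Counts over all genes moved too: for genotype on average 256 genes were called, but 720 by DESeq2, 1053 with the covariate, 130 with no filter, 435 without the 4 libraries, 1291 without the 3, 13 with the block and 11 with libraries joined. For genotype by sex 0 genes were called, with 3688 at an unadjusted p under 0.05 and 57 by DESeq2, and 1107 without the 3 libraries; by age label 0, with 621 and 2.

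Replicate numbers did not pair the libraries throughout: deviations of same-numbered libraries correlated over 0.1 in 17 of 26 pairs across the age label, 11 of 26 across treatment, 7 of 26 across genotype and 13 of 25 across sex, and 15, 13, 9 and 10 were closest to their own number. Across the age label every pair was over 0.1 in wild-type IFN-γ males (5 of 5, 0.218 to 0.434) and wild-type untreated females (3 of 3, 0.141 to 0.378). No pair of libraries agreed within sampling noise (lowest distance 3.66 noise units), so the planned merging of near-identical libraries gave no value. Of 102 pairs within groups, however, 16 were closer than any pair of different groups (lowest distance 8.75), and these are the closest libraries joined above. Both knock-in young IFN-γ female libraries formed such a pair (7.02), so the joining left that group with 1 library. Depth limits H2-Eb2 and H2-Oa most, which lay near or below 1 CPM in many libraries. Labels that stand against the RNA limit every age and treatment comparison.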
